A study of Homo sapiens with 6 samples.

Results

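The 10 immediate-early genes FOS, FOSB, JUN, JUNB, JUND, EGR1, IER2, IER3, DUSP1 and ZFP36 were followed through 6 RNA-seq libraries of THP1, a monocyte-like human leukaemia line with an MLL fusion gene. They were taken by name, and all 10 were among the 34938 genes with summed estimated counts and among the 14597 genes with enough counts to be tested. The study asked how the THP1 transcriptome depends on ALKBH5, the demethylase of N6-methyladenosine in RNA. The libraries carry 3 labels with n = 2 each. A5-res is labelled ALKBH5 rescue, shA5 is labelled ALKBH5 knock-down by a hairpin, and shCtrl is the hairpin control, whose genotype label is wild-type. The libraries of each label are numbered 2 and 1 in their titles. The labels do not give the hairpin sequences, whether the lines were clones, whether A5-res cells still carry the knock-down hairpin, or whether the replicates came from separate cultures. Whether the spread behind the p-values is that of separate cultures is therefore not known. Libraries of the same label differed widely by their number, as given below.

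Immediate-early genes are transcribed within minutes of a signal because their activators are already in the cell. Serum response factor (SRF) with its ternary complex partners binds the CArG box, CREB and ATF factors bind TGACG-type elements, and MAP kinases activate both kinds of factor. FOS, FOSB and the JUN proteins pair into the AP-1 transcription factor, EGR1 is a zinc finger factor that binds GC-rich sites, and the functions of IER2 and IER3 lie in growth and survival responses. DUSP1 ends the response by dephosphorylating MAP kinases, and ZFP36 (tristetraprolin) ends it by binding AU-rich elements in 3′ untranslated regions and directing those mRNAs to decay. In monocytes and macrophages these genes respond to inflammatory and growth factor signals.

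The promoters of FOS, JUN, JUNB and EGR1 are shown because the AP-1 and EGR results below turn on these genes, and because the sequences differ in the elements named above. Each sequence is the 250 bases before the RefSeq gene start (GRCh38.p14), written 5′ to 3′ on the strand of the gene. Capitals mark CArG boxes and TGACG elements read on either strand, where CGTCA is the reverse complement of TGACG. FOS lies at chr14:75278578-75278827 on the plus strand, JUN at chr1:58784048-58784297 on the minus strand, JUNB at chr19:12791236-12791485 on the plus strand and EGR1 at chr5:138465229-138465478 on the plus strand.
FOS: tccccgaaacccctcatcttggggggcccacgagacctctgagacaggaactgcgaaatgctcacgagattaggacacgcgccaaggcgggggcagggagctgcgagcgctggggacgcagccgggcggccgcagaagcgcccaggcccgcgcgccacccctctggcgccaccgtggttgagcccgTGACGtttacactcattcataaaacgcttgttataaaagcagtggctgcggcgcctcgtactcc
JUN: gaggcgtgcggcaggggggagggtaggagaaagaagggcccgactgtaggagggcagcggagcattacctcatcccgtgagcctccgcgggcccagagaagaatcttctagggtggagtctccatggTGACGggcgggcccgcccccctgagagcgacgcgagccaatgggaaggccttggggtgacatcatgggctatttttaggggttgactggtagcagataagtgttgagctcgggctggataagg
JUNB: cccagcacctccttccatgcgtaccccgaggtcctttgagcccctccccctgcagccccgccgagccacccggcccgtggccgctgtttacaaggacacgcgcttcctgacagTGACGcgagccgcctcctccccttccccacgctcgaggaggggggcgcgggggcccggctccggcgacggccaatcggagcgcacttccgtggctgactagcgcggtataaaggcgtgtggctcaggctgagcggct
EGR1: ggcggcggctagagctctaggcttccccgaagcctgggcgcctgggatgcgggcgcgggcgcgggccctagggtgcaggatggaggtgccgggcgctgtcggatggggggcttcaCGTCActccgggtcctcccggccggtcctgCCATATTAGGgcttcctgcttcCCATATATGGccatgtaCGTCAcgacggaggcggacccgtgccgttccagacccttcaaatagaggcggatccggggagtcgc
Positions of matches are those of their first base, with -1 the base before the gene start. EGR1 held a pair of CArG boxes in this window, CCATATTAGG at -105 and CCATATATGG at -83, between TGACG elements at -135 and -66. FOS held 1 TGACG element at -64, JUN 1 at -123 and JUNB 1 at -137.

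Promoter entries were available for 9 of the 10 genes and not for IER3. Over the whole window of 250 bases before to 50 bases after the start, TGACG on either strand was found in 8 of these 9 genes, all except ZFP36, against 24.6% of 35116 promoters of the same length. Its palindromic extension TGACGTCA, which also contains TGACG, was found in DUSP1 and JUND, against 1.85% of promoters. The CArG box was found in EGR1 alone of the 9, against 1.29% of promoters. The AP-1 motif TGANTCA, present in 7.71% of promoters, and the EGR motif GCGGGGGCG, present in 5.07%, were in none of the 9 windows. TATAAA was found in FOS, FOSB, JUNB and DUSP1, against 11.5% of promoters. A match describes letters in a window and not a bound site, and elements outside the window were not searched.

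The libraries themselves were separated by their number and not by their label. Library totals of estimated counts lay between 14534386 and 24857373. The targeted gene differed by number too, and little by label. ALKBH5 stood at 938.5, 973.3 and 1064 CPM (the count scaled by TMM-adjusted library size) in the libraries labelled A5-res, shA5 and shCtrl number 2, and at 13.1, 12.03 and 14.2 CPM in those numbered 1. Its log2 fold change was -0.13 (SE 2.48) for shA5 against shCtrl and -0.05 (SE 2.48) for A5-res against shA5 (edgeR adjusted p = 1 for both). With the replicate number as a further term, called a block below, these were -0.17 (SE 0.11) and 0.02 (SE 0.11). For A5-res against shCtrl the block value was -0.15 (SE 0.11), and ALKBH5 passed in none of these comparisons. The directions given below therefore follow the labels as deposited. All 12 monocytic markers searched were detected, with a summed level of 3904 to 4422 CPM in the libraries numbered 2 and 3726 to 4163 CPM in those numbered 1. Of these markers, 3 passed the test as higher and 4 as lower in number 2, with CD14 at -0.72 (SE 0.08) and LYZ at 0.52 (SE 0.10) on the log2 scale. CD3D, CD2, HBA1, HBB, PF4, KRT18, KRT19 and COL3A1, which mark T cells, red cells, platelets, epithelium and fibroblasts, were at 0 counts in every library. Other markers of the same lists had low counts in every library, such as GP1BA (23 to 54), CDH1 (6.1 to 22.3) and COL1A1 (5 to 20). The summed level of the 3 tested of 9 T and NK cell markers, mostly CD4, which monocytes express too, was 160.5 to 181.2 CPM in number 2 and 192.1 to 203.5 CPM in number 1. That of the 4 tested of 6 B cell markers was 11.1 to 13.2 CPM and 6.99 to 8.70 CPM in the same order, and those of erythroid and megakaryocytic and of epithelial and fibroblast markers did not exceed 4.42 CPM. Between the numbers, PAX5 (1.17, SE 0.19) and CD79B (0.99, SE 0.25) passed as higher in number 2 on the log2 scale. CD4 (-0.25, SE 0.08) and GP1BA (-1.03, SE 0.26) passed as lower. The part of these markers in the differences below was not tested.

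Summed over their transcript models, FOS and ZFP36 had the highest levels per transcript length of the 10 genes. Averaged over the 6 libraries, FOS stood at 246 ± 22.8 TPM (SD, n = 6; a length-scaled share of all transcripts, as deposited) and ZFP36 at 236 ± 17.5 TPM. Their order turned with the number, at 263 ± 9.92 TPM for FOS and 224 ± 12.3 TPM for ZFP36 in number 2, without overlap, and at 229 ± 18.2 and 248 ± 13.8 TPM in number 1, with overlap (SD, n = 3 each). JUNB followed at 134 ± 11.3 TPM. JUND at 73.6 ± 5.35 TPM, JUN at 73.0 ± 16.2 TPM and IER2 at 64.5 ± 4.30 TPM followed. JUN changed its place in this order with the replicate number. In number 2 it stood at 86.6 to 89.4 TPM, above every JUND and IER2 value. In number 1 it stood at 56.6 to 60.9 TPM, below every JUND and IER2 value of that number. This change of place holds for the summed models only. In number 1 the transcripts with most counts, JUND-201 at 51.5 to 56.0 TPM and IER2-201 at 34.6 to 37.9 TPM, lay below every JUN value. IER3 stood at 27.5 ± 11.8 TPM and EGR1 at 21.5 ± 2.26 TPM, and their order turned with the number as well. In number 2 IER3 lay at 14.73 to 18.48 TPM, below every EGR1 value of that number (19.11 to 20.81 TPM). In number 1 it lay at 36.15 to 40.01 TPM, above every EGR1 value of that number (21.67 to 25.05 TPM). DUSP1 stood at 11.5 ± 1.10 TPM and FOSB at 0.780 ± 0.290 TPM. The genes thus spanned a wide range within one cell line, with FOSB at only 15.8 to 34.2 estimated counts per library. The FOS level included its processed transcript and short transcript models. On protein-coding models alone FOS stood at 194 TPM, below ZFP36 at 236 TPM. The ZFP36 level included the short models ZFP36-201 (690 bases, 8.37% of its counts) and ZFP36-204 (444 bases, 4.87%). The transcripts with most counts, ZFP36-203 and FOS-201, stood at 128.8 to 136.8 TPM and 49.0 to 62.9 TPM per library. JUNB, with 1 transcript, stood at 121.4 to 148.8 TPM. The order of these genes in TPM thus depends on which models are summed.

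**Figure D1:**
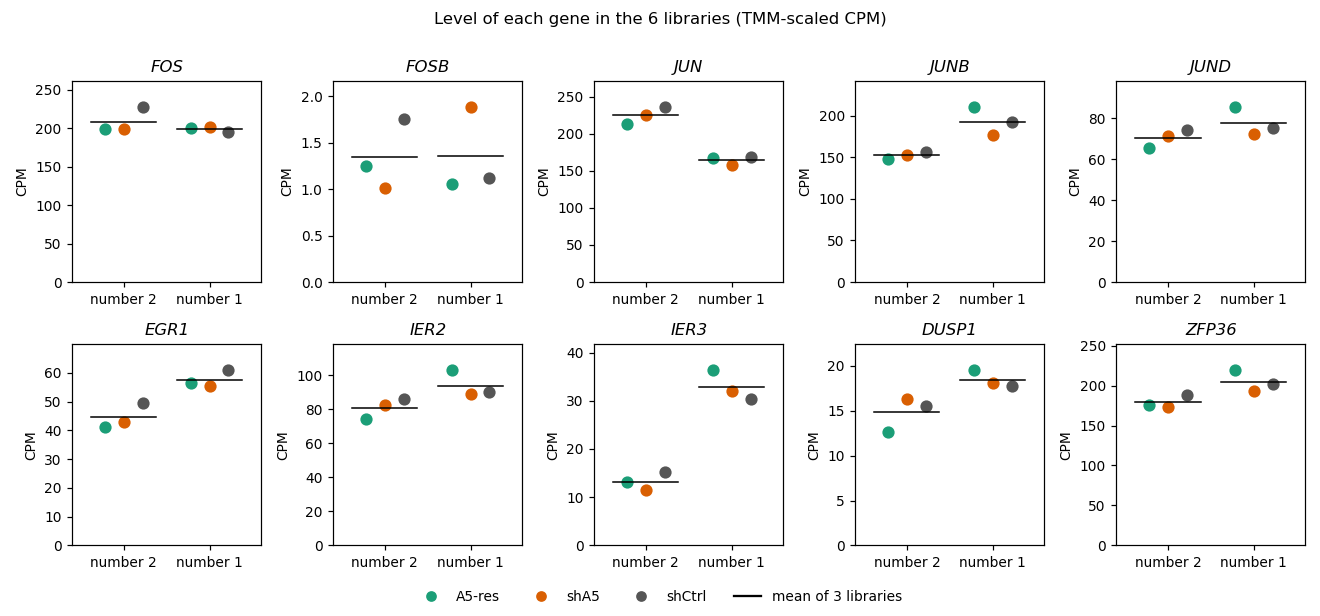
Level of each of the 10 genes (TMM-scaled CPM, axes from 0) in every library, with the libraries numbered 2 on the left, those numbered 1 on the right and colour for the label; bars are means of 3 libraries. JUN lies higher in every library numbered 2 (213.5 to 236.1 CPM, against 157.7 to 168.5 CPM), IER3 lies lower (11.4 to 15.3 CPM, against 30.4 to 36.3 CPM), and the labels overlap within both genes.

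The comparisons along the labels set the libraries labelled as ALKBH5 knock-down, rescue and control side by side. ALKBH5 itself did not pass in any of them, as given above. They therefore cannot show whether these genes answer to a loss or return of ALKBH5. None of the 10 passed the test in any of the 3 comparisons, and none of the other genes did. edgeR's quasi-likelihood test called 0 of 10 members and 0% of the 14597 genes for A5-res against shCtrl, for A5-res against shA5 and for shA5 against shCtrl (adjusted p under 0.05). At an unadjusted p under 0.05 it found 47, 41 and 40 genes in the same order, with no member among them, and DESeq2 and limma-voom also called 0 genes. This fit leaves the difference between the replicate numbers in its spread, which widens its standard errors. For JUN in shA5 against shCtrl the standard error was 0.272, against 0.098 with the block. With the block, the same test found 234, 286 and 350 genes at an unadjusted p under 0.05, again with no member among them. With the replicate number as a block, 1 gene passed in each of A5-res against shCtrl and shA5 against shCtrl (0.00685% of genes) and 0 in A5-res against shA5. That gene was RPL21P16, a ribosomal protein pseudogene named here after its values were seen (edgeR adjusted p = 0.00727 and 0.00755). It had 242 and 275 estimated counts in the libraries labelled A5-res and shA5 number 2 and rounded to 0 in the other 4, and whether it shared reads with its parent gene was not tested. No member passed with the block, where the smallest adjusted p of a member was 0.975.

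For shA5 against shCtrl, EGR1 and IER3 had block values of the same size, -0.17 (SE 0.11) for EGR1 and -0.17 (SE 0.16) for IER3. The IER3 differences had opposite signs within the numbers, at -0.42 in number 2 and 0.07 in number 1 on the log2 scale. EGR1 stood at 43.1 and 55.5 CPM in the libraries labelled shA5 numbers 2 and 1, against 49.5 and 60.8 CPM in those labelled shCtrl. The library labelled shA5 was the lower of the pair within each number, but the groups overlapped. Its log2 fold change was -0.16 (SE 0.25, edgeR adjusted p = 1), and the 95% interval with the block was -0.42 to 0.08. In the libraries labelled A5-res, EGR1 stood at 41.3 and 56.4 CPM, near the shA5 values, at -0.01 (SE 0.25) against shA5. Within each number the library labelled A5-res also lay below that labelled shCtrl, at -0.26 in number 2 and -0.11 in number 1 on the log2 scale.

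For JUN, JUNB, JUND and FOS, the fitted values of shA5 against shCtrl lay between -0.08 and -0.06. JUN stood at 225.9 and 157.7 CPM in the libraries labelled shA5 numbers 2 and 1, against 236.1 and 168.5 CPM in those labelled shCtrl, that is, -0.08 (SE 0.27) on the log2 scale. JUNB had the same value, -0.08 (SE 0.23), and FOS stood at -0.08 (SE 0.16). For JUND the levels did not overlap, at 71.3 and 72.4 CPM in shA5 and 74.6 and 75.4 CPM in shCtrl, but the log2 fold change was only -0.06 (SE 0.19). The share of all genes without overlap between these labels was not counted. FOSB, on its few counts, stood at -0.79 within number 2 and at 0.75 within number 1.

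Of the response genes, IER3 and ZFP36 were the members higher in A5-res than in shA5 within both numbers. Within each number, IER3 was higher in the library labelled A5-res than in that labelled shA5, at 0.20 in number 2 and 0.18 in number 1 on the log2 scale, and the block fit gave 0.19 (SE 0.16, 95% interval -0.16 to 0.54). For ZFP36 the same differences were 0.03 and 0.18, with a block value of 0.10 (SE 0.10). For shA5 against shCtrl, DUSP1 was the 1 member higher within both numbers, at 0.06 and 0.02, and 6 members were lower within both, namely EGR1, IER2, JUN, JUNB, JUND and ZFP36. For A5-res against shCtrl, EGR1, FOSB and JUN were lower within both numbers and no member was higher. The share of all genes with the same sign within both numbers was not counted, so these counts describe the members only. For shA5 against shCtrl the median log2 fold change over all genes tested was itself below 0, at -0.026. Leaving FOSB aside, the 95% intervals of the block fit ran from -0.43 to 0.38 for A5-res against shCtrl, from -0.47 to 0.54 for A5-res against shA5 and from -0.52 to 0.40 for shA5 against shCtrl. Differences of a size within those bounds remain possible. A5-res enters 2 of these comparisons, as do shA5 and shCtrl, so the comparisons share libraries.

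**Figure D2:**
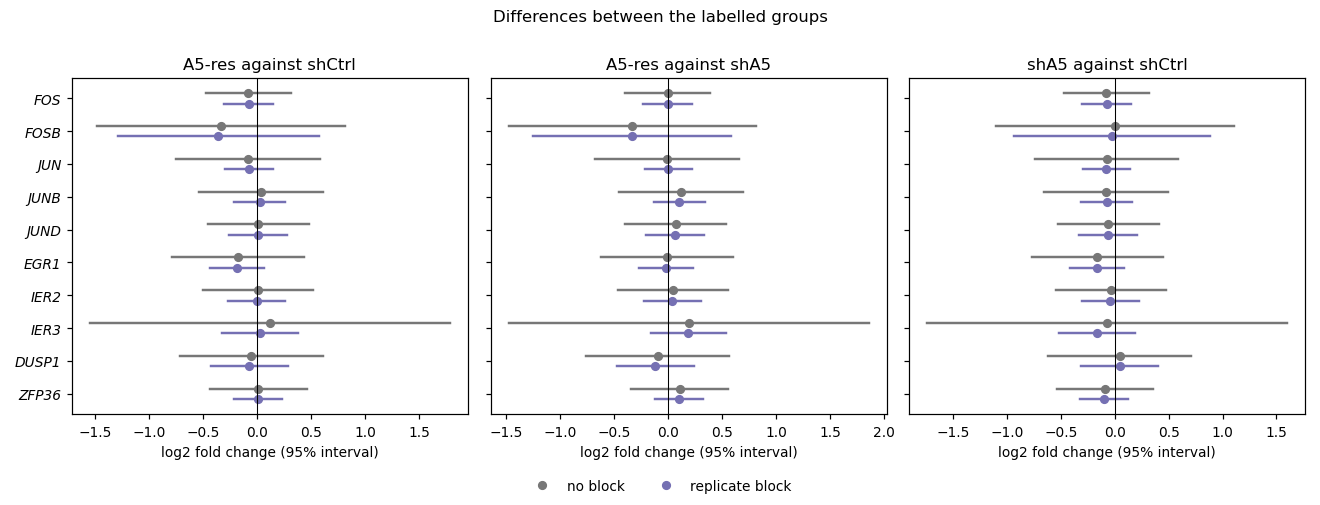
Log2 fold change of each gene between the labels, with 95% intervals, from the fit without a block (grey) and with the replicate number as a block (purple). All 10 intervals hold 0 in all 3 panels, and the block narrows that of IER3 most.

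Between the libraries numbered 2 and those numbered 1, JUN rose and IER3, EGR1 and JUNB fell. Each label has a library of either number, and the difference was tested with the label as a term. What the numbers stand for is not given in the labels, and because ALKBH5 itself differed 75.5-fold between them (log2 fold change 6.24, SE 0.11), anything else that differs with the number cannot be told apart from it. edgeR's quasi-likelihood test called 4 of the 10 members, against a background of 46% of the 14597 genes. It called 1 member higher (background 23.1%) and 3 lower (background 22.9%). The share of members called, 40%, was near that of genes at large. The CPM values of the numbers did not overlap for 7 of the 10, against 57.8% of all genes. The median log2 fold change was -0.20 over the 10 members and 0.01 over all genes tested. In bulk RNA, a lower level per cell and a smaller share of expressing cells cannot be told apart.

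IER3 (ENSG00000137331.11, GRCh38 chromosome 6, 30743199 to 30744554, minus strand), a survival-related early response gene in the major histocompatibility region, differed most. It stood at 13.1, 11.4 and 15.3 CPM in the libraries labelled A5-res, shA5 and shCtrl number 2, against 36.3, 32.0 and 30.4 CPM in those numbered 1. Every library numbered 2 lay below every library numbered 1. IER3 was 2.49-fold lower in number 2 (95% interval 2.04 to 3.05; log2 fold change -1.32, SE 0.13, edgeR adjusted p = 5.96e-05). The log2 difference was -1.47 within A5-res, -1.49 within shA5 and -0.99 within shCtrl. Of all genes tested, 2.1% had a lower log2 fold change. In TPM, IER3 stood at 16.8 ± 1.92 in number 2 and 38.1 ± 1.93 in number 1 (SD, n = 3 each).

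The IER3 values rest on how copies of the gene were counted. The transcript set holds 2 IER3 transcripts on the primary assembly and 10 on alternative haplotypes of the region. The primary transcripts were at 0 counts in every library. All IER3 counts, 219 to 296 per library in number 2 and 433 to 862 in number 1, lay on the haplotype copies. Summed over primary-assembly transcripts alone, IER3 had no counts and was not tested. Most of its counts, 84.8% to 91.3% per library, lay on copies of the form of 1244 bases, and the rest on the form of 1350 bases.

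JUN (ENSG00000177606.6, chromosome 1, 58780788 to 58784327, minus strand), the archetypal AP-1 subunit, was the one member that rose. JUN stood at 213.5, 225.9 and 236.1 CPM in the libraries labelled A5-res, shA5 and shCtrl number 2, against 167.8, 157.7 and 168.5 CPM in those numbered 1. All values of number 2 lay above all values of number 1. It was 1.37-fold higher (95% interval 1.21 to 1.55; log2 fold change 0.45, SE 0.08, edgeR adjusted p = 0.00149), with log2 differences of 0.35, 0.52 and 0.49 within A5-res, shA5 and shCtrl. JUN is a single-exon gene with 1 transcript in the set, so its values do not depend on a division of reads among isoforms.

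JUNB (ENSG00000171223.5, chromosome 19, 12791496 to 12793315, plus strand) encodes the partner that often opposes JUN, and it moved the other way. JUNB stood at 147.7, 152.9 and 156.9 CPM in number 2, against 210.5, 176.7 and 192.1 CPM in number 1, with the labels in the same order as for JUN. The numbers did not overlap. The log2 fold change was -0.34 (SE 0.09, edgeR adjusted p = 0.0101). JUND (ENSG00000130522.5, chromosome 19, 18279760 to 18281622, minus strand), the subunit that is least dependent on stimulation, stood at 70.5 ± 4.47 CPM in number 2 and 77.8 ± 6.87 CPM in number 1 (SD, n = 3 each) and did not pass (log2 fold change -0.14, SE 0.10, edgeR adjusted p = 0.271). HOOK2 on the opposite strand spans JUNB, with 294 to 473 estimated counts per library over its whole length, and whether reads were assigned by strand is not given in the labels or files.

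FOS (ENSG00000170345.9, chromosome 14, 75278774 to 75282230, plus strand), the inducible partner of the JUN proteins, did not pass. FOS stood at 199.3, 198.6 and 227.3 CPM in the libraries labelled A5-res, shA5 and shCtrl number 2, against 200.2, 201.6 and 195.4 CPM in those numbered 1. Only the library labelled shCtrl number 2 stood above the others. The log2 fold change was 0.06 (SE 0.08, 95% interval -0.12 to 0.25, edgeR adjusted p = 0.57). In TPM, FOS stood at 266.5, 252.0 and 270.9 in number 2, against 209.1, 244.8 and 232.9 in number 1, and on log2(TPM + 0.5) the difference was 0.20 (limma adjusted p = 0.0767). FOSB (ENSG00000125740.13, chromosome 19, 45467995 to 45475179, plus strand) ranged from 1.02 to 1.88 CPM with no separation by number, a log2 fold change of -0.02 and a standard error of 0.34. The span of FOSB lies within that of ERCC1 on the opposite strand, which had 654 to 1232 estimated counts per library, and whether their reads were mixed was not tested.

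EGR1 (ENSG00000120738.7, chromosome 5, 138465490 to 138469315, plus strand), the gene with the CArG boxes printed above, fell. EGR1 stood at 41.3, 43.1 and 49.5 CPM in the libraries labelled A5-res, shA5 and shCtrl number 2, against 56.4, 55.5 and 60.8 CPM in those numbered 1. No value of number 2 reached the lowest of number 1. It was 1.29-fold lower (95% interval 1.12 to 1.49; log2 fold change -0.37, SE 0.09, edgeR adjusted p = 0.00847), with -0.45, -0.37 and -0.30 within A5-res, shA5 and shCtrl.

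The remaining members lay lower in number 2 without passing. DUSP1 (ENSG00000120129.5, chromosome 5, 172768090 to 172771195, minus strand), the MAP kinase phosphatase, stood at 12.7, 16.3 and 15.6 CPM in the libraries labelled A5-res, shA5 and shCtrl number 2, against 19.5, 18.1 and 17.8 CPM in those numbered 1. Its log2 fold change was -0.32 (SE 0.13, edgeR adjusted p = 0.0679). ZFP36 (ENSG00000128016.5, chromosome 19, 39406813 to 39409412, plus strand), the AU-rich element binder, stood at 175.7, 172.6 and 188.8 CPM in number 2 and at 218.9, 193.5 and 202.2 CPM in number 1. Here too the numbers did not overlap, and the log2 fold change was -0.19 (SE 0.08, edgeR adjusted p = 0.0769). IER2 (ENSG00000160888.6, chromosome 19, 13150415 to 13154908, plus strand) stood at 74.5, 82.5 and 86.0 CPM in number 2 and at 102.9, 88.9 and 90.0 CPM in number 1, at -0.21 (SE 0.10) on the log2 scale (edgeR adjusted p = 0.0985). JUND, IER2, IER3, DUSP1, ZFP36, EGR1 and JUNB were lower in number 2 within every label, JUN was higher within every label, and FOS and FOSB were mixed. The share of all genes with the same sign within every label was not counted.

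**Figure D3:**
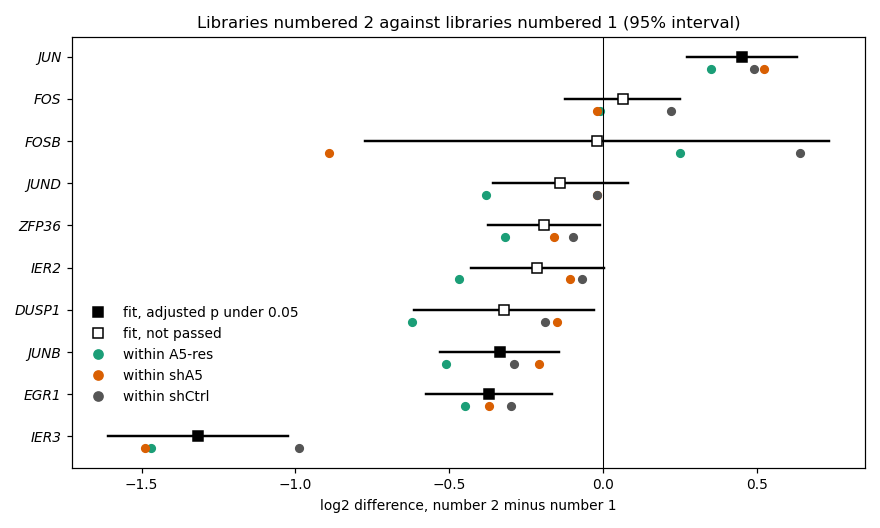
Log2 difference of the libraries numbered 2 from those numbered 1 for each gene. Squares are the fit with the label as a term and its 95% interval, filled where the adjusted p was under 0.05, and points are the differences within each label. JUN (0.45) stands to the right of 0 and IER3 (-1.32) far to the left, while the points of FOSB scatter from -0.89 to 0.64.

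A pair of limits bear on these 4 calls. Without the library labelled shA5 number 1 or that labelled shA5 number 2, IER3 alone passed, and the call count over all genes fell to 3952 or 3957. JUN then had an adjusted p of 0.0628 or 0.0586, JUNB of 0.0708 or 0.0704 and EGR1 of 0.141 or 0.135 in edgeR's quasi-likelihood test, with log2 fold changes from -0.40 to 0.42. On log2(TPM + 0.5), tested with limma, JUN (0.59, adjusted p = 0.00305) and IER3 (-1.16, adjusted p = 0.00227) passed, while JUNB (-0.20, adjusted p = 0.0566) and EGR1 (-0.23, adjusted p = 0.125) did not. That scale moved the median over all genes to 0.11 and called 4775 genes, 2890 higher and 1885 lower, against 3376 higher and 3344 lower on the count scale.

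The makeup of the JUN family differed between the numbers, while its total overlapped. JUN made up 29.5%, 31.4% and 31.0% of the summed TPM of JUN, JUNB and JUND in the libraries labelled A5-res, shA5 and shCtrl number 2, against 20.2%, 22.2% and 21.4% in those numbered 1. JUNB made up 42.9%, 44.5% and 43.2% in number 2 and 53.1%, 52.1% and 51.2% in number 1. The ratio of JUN to JUNB was 0.689, 0.705 and 0.718 in number 2 and 0.380, 0.426 and 0.418 in number 1. The share and the ratio each separated the numbers without overlap. The summed level of the family was 293.3, 284.9 and 281.3 TPM in number 2, against 280.1, 259.2 and 284.5 TPM in number 1, and overlapped. These sums and the shares include JUND-202, a model of 500 bases with 5.52% of JUND counts, at 13.2 to 31.2 TPM per library. The ratio of JUN to JUNB does not include it.

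In the FOS family, the FOS share of the TPM summed over all transcript models was higher in number 2. FOS made up 80.0%, 79.4% and 79.9% of the summed TPM of FOS, FOSB, FOSL1 and FOSL2 in the libraries labelled A5-res, shA5 and shCtrl number 2, against 75.2%, 75.2% and 76.5% in those numbered 1. FOS itself stood higher in TPM in number 2, as given above, and FOSL1 lower. FOSL1, a FOS relative that accumulates later after a stimulus, stood at 12.3, 11.8 and 11.5 TPM in number 2 and at 21.7, 23.8 and 20.7 TPM in number 1, and its count fell (log2 fold change -1.04, SE 0.13, edgeR adjusted p = 0.000209). FOSL2, the second FOS family gene in summed TPM, was at -0.05 (SE 0.08) and did not pass. The size of the FOS share rests on short and non-coding FOS models. FOS-201 alone stood at 49.0 to 62.9 TPM per library, against 46.7 to 55.9 TPM for FOSL2. In CPM, FOSL2 averaged 241.7 and FOS 203.8.

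**Figure D4:**
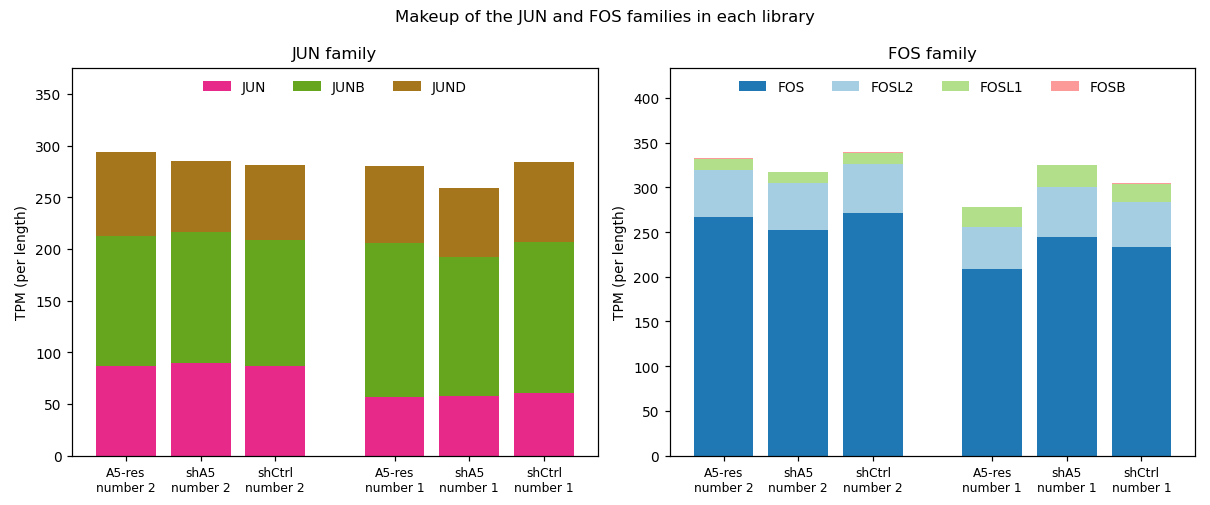
Summed TPM (stacked bars from 0) of the JUN family, left, and the FOS family, right, in each library, with those numbered 2 before those numbered 1. The JUN segment is taller and the JUNB segment shorter in the libraries numbered 2, at nearly the same total, and the FOSL1 segment is 11.5 to 12.3 TPM there, against 20.7 to 23.8 TPM in number 1.

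Genes of the same pathways were counted from lists chosen by function and tested in the same fit, against the background of 23.1% higher and 22.9% lower. Of 14 other AP-1 and related factor genes, 2 rose and 4 fell in number 2, with JDP2, a repressor of AP-1 sites, at 0.93 (SE 0.13), MAFF at -0.76 (SE 0.14) and MAF at -0.52 (SE 0.10). Of 5 further EGR and NAB genes 4 were tested. EGR2, a close relative of EGR1, fell with a log2 fold change of -1.30 (SE 0.27), and NAB1, a corepressor of EGR proteins, rose by 0.67 (SE 0.12). The other two did not pass, with NAB2 at -0.30 (SE 0.12) and EGR3 at -0.65 (SE 0.41). The median over the 4 was -0.47.

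In the list of SRF and its partners, SRF itself fell. SRF, the factor that binds the CArG box, stood at 168 ± 17.6 CPM in number 2 and 241 ± 7.51 CPM in number 1 (SD, n = 3 each; log2 fold change -0.53, SE 0.09, edgeR adjusted p = 0.00105). Its partners ELK3 (-0.93, SE 0.14) and ELK1 (-0.41, SE 0.12) fell and MRTFB (0.41, SE 0.14) rose, so that 3 of 6 genes of this list fell and 1 rose. Of the 9 members with a promoter entry, EGR1 alone held a CArG box in the window searched. Whether the levels of SRF and its partners bear on EGR1 or on the other members was not tested. In the CREB list of 8 genes, 3 rose and 2 fell, with the coactivators CRTC3 at -0.95 (SE 0.10), CRTC2 at -0.42 (SE 0.08) and CRTC1 at 0.60 (SE 0.13), and CREBBP at 0.32 (SE 0.09). In the ERK cascade list of 18 genes, 4 rose and 2 fell. RPS6KA1, a kinase downstream of ERK, stood at 333 ± 27.2 CPM in number 2 and 114 ± 5.96 CPM in number 1 (log2 fold change 1.55, SE 0.09, edgeR adjusted p = 4.07e-06). SOS2 (0.77, SE 0.14) rose and ARAF (-0.77, SE 0.09) fell.

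Of 16 genes of the JNK and p38 cascades, 3 rose and 7 fell. The falling genes included the p38 kinases MAPK14 (-0.66, SE 0.08) and MAPK11 (-1.04, SE 0.14) and the p38 targets MAPKAPK3 (-0.52, SE 0.09) and MAPKAPK2 (-0.42, SE 0.08). Among 13 other MAP kinase phosphatases and feedback inhibitors of ERK signalling, 1 rose and 7 fell, with a median of -0.35. The phosphatases DUSP4 (-1.36, SE 0.11) and DUSP2 (-1.27, SE 0.14) and the inhibitors SPRY4 (-1.44, SE 0.23) and SPRED2 (-0.66, SE 0.11) were among those that fell. Of 7 genes that bind AU-rich elements or share the decay function of ZFP36, 1 rose and 1 fell, with TIA1 at 0.83 (SE 0.10) and ELAVL1, a stabilising binder, at -0.36 (SE 0.08). ZFP36L2 (0.21, SE 0.08) and HNRNPD (0.12, SE 0.08) did not pass.

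The largest list held 35 other early response genes, of which 33 were tested, 3 rose and 12 fell, with a median of -0.14. The inhibitors of DNA binding ID1 (-1.97, SE 0.14), ID2 (-0.81, SE 0.08) and ID3 (-2.70, SE 0.31) and the kinase gene PLK3 (-0.93, SE 0.11) had the smallest p values. No gene of these lists passed in any comparison along the labels, with or without the block.

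**Figure D5:**
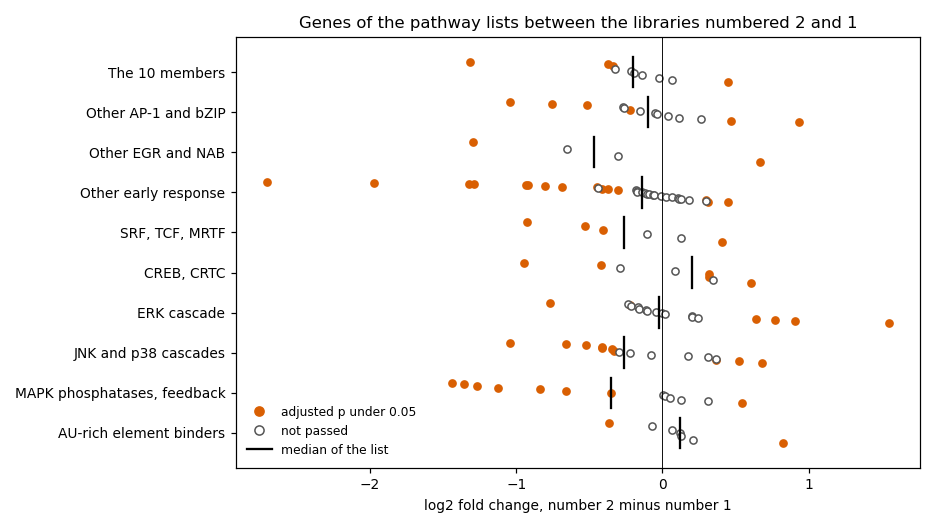
Log2 fold change of the libraries numbered 2 against those numbered 1 for each tested gene of the lists, filled where the adjusted p was under 0.05, with the list's median as a bar. The MAP kinase phosphatases and feedback inhibitors have a median of -0.35 and the other EGR and NAB genes one of -0.47, against 0.01 for all genes tested, and points on both sides of 0 occur in every list.

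The transcript models of the members differed in how firmly their counts could be assigned. JUN, JUNB, EGR1 and DUSP1 each had 1 transcript. FOS-201, the full-length coding transcript of 2158 bases, held 42.0% to 46.3% of FOS counts in the libraries numbered 2 and 40.2% to 45.3% in those numbered 1, and FOS-208 held 19.5% to 21.9% and 22.3% to 25.3%. ZFP36-203 held 87.1% to 88.0% of ZFP36 counts in number 2 and 84.5% to 86.5% in number 1. The ranges of the numbers did not overlap for FOS-208 and for ZFP36-203, and the share of all transcripts without overlap was not counted. JUND-201 held 91.2% to 96.4% and 92.7% to 95.6%, and IER2-201 held 61.2% to 65.9% and 57.8% to 65.3%. FOSB counts were too few to place: the share of its retained-intron transcript FOSB-205 ran from 21.1% to 65.8% in number 2 and from 0% to 32.1% in number 1.

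The 3′ untranslated regions of the members held the AU-rich motif TATTTAT, which ZFP36 binds in RNA form, in 7 of the 10, against 30.5% of the main transcripts of 12472 expressed genes. IER3, counted on its primary-assembly form of 1350 bases, which is not the form that held most of its counts, had 4 copies, DUSP1 and ZFP36 itself 3 each and FOS 2, while JUNB, EGR1 and IER2 held none. JUN, the member that rose between the numbers, held 1. GGACT, a common sequence around N6-methyladenosine, occurred at a median of 1.25 per kilobase over 1 transcript of each member and 0.951 over the same 12472. It ranged from 0 in EGR1 to 2.88 in IER2 and 2.96 in IER3. The files hold no measurement of the mark itself.

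The genes whose profiles over the 6 libraries came nearest to those of FOS, JUN and EGR1 were sought among 10644 other protein-coding genes that averaged 5 CPM or more, by the root mean square difference of centred log2 CPM. For FOS these were PPP1R18 (0.0173), IPO9 (0.0196) and TRAF3IP2 (0.0204), against a range of 0.22 of FOS itself. The nearest to JUN were WDR55 (0.0171), FAM120B (0.0201) and SLC1A4 (0.0210), against a JUN range of 0.58. For EGR1 they were KLF10 (0.0213), LAMP1 (0.0318) and DPH1 (0.0319), against an EGR1 range of 0.55. KLF10 is itself an early response gene and stood at -0.37 (SE 0.10) in number 2 against number 1. The 6 points share the split by replicate number, and with so many genes searched a close profile is a description only.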

How the data were processed

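The authors deposited, for each of 6 THP1 libraries, a kallisto abundance table of 179973 transcripts with estimated counts and TPM. Per the submitters' processing notes, CASAVA, kallisto 0.43.1 and the build hg38 were used. Per the labels' protocols, RNA was oligo-dT selected, randomly primed and amplified by PCR. No molecular identifiers are mentioned, and neither labels nor files give the strand setting. The deposited estimated counts were summed per gene with GENCODE release 29 (163714 transcripts) and, for 14384 transcripts on alternative haplotypes and patches, by symbol through GENCODE's gene name table. The 1875 unmatched transcripts held 0.193% to 0.206% of the counts and were left out. Sums were rounded to whole numbers. The deposited TPM values were summed the same way for levels between genes.

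Tests used edgeR's quasi-likelihood fit (version 4.0.16, R 4.3.3; TMM, filterByExpr, all 6 libraries), with 1 coefficient per label (3 residual degrees of freedom), and for replicate number with label and number (2 residual degrees of freedom). Benjamini-Hochberg adjustment ran over 14597 genes with a threshold of 0.05. The procedure was tested on simulated data. Standard errors are the absolute log2 fold change over the square root of F. Replicate numbers come from the titles, and no label says what they share. Deviations from the group means of same-numbered libraries correlated at 0.657, 0.770 and 0.792 (3 separate values), so the replicate block treats the numbers as pairing the libraries. The main fit along the labels does not use this pairing. Alternatives were RLE factors, DESeq2 1.42.0, limma-voom (limma 3.58.1), no filter, at least 1 CPM in at least 2 libraries, log2(TPM + 0.5), the replicate block, number without label, and each library left out. Promoter sequences are RefSeq's (GRCh38.p14). Motif counts used the coding transcript with most counts per gene, with at least 60 in all for the background. The members were kept whatever their count, FOSB-206 with fewer than 60 and IER3-202 with 0. The genes named are ALKBH5, the 10 members, up to 4 per list with the smallest p between the replicate numbers, and the 3 nearest profiles of FOS, JUN and EGR1. FOSL2 and RPL21P16 were named after their values were seen, and 1 gene that the rule names is not reported here. The members and lists were chosen with earlier results of these data known.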

Additional observations from a re-analysis of the deposited data

How the results depend on the processing

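IER3, JUN, JUNB and EGR1 passed between the replicate numbers with RLE factors, DESeq2, limma-voom and both other filters. On log2(TPM + 0.5) only 2 members passed, and 4 values with no call changed sign, with FOSB at 0.33 and JUND at 0.02 between the numbers, and FOSB at 0.08 for A5-res against shA5 and 0.19 for A5-res against shCtrl. With primary-assembly transcripts alone, an alternative chosen after the data were seen, IER3 was not tested and 3 members passed. Without the label as a term, DUSP1 (adjusted p = 0.0394) and ZFP36 (adjusted p = 0.038) passed too. With the replicate block, 1 gene was called for shA5 against shCtrl and 1 for A5-res against shCtrl, and the block changed no other call. With 1 library left out, the numbers gave 3952 to 6891 genes and 1 to 5 members called, with FOS from -0.01 to 0.11 and FOSB from -0.34 to 0.44. Along the labels, leaving out a library leaves 1 library in a group, assumed to vary like the others, which then carries the replicate-number difference, and no member passed. For A5-res against shCtrl the values ran from -0.14 to 0.03 for FOS, -0.57 to 0.03 for FOSB, -0.27 to 0.18 for JUN, -0.24 to 0.27 for JUNB, -0.19 to 0.19 for JUND, -0.42 to 0.03 for EGR1, -0.24 to 0.23 for IER2, -0.80 to 0.73 for IER3, -0.40 to 0.22 for DUSP1 and -0.15 to 0.16 for ZFP36. For A5-res against shA5 they ran from -0.71 to 0.17 for FOSB, -0.24 to 0.28 for JUN, -0.16 to 0.35 for JUNB, -0.13 to 0.25 for JUND, -0.25 to 0.20 for EGR1, -0.20 to 0.27 for IER2, -0.73 to 1.12 for IER3, -0.44 to 0.18 for DUSP1 and -0.06 to 0.26 for ZFP36. For shA5 against shCtrl they ran from -0.16 to 0.03 for FOS, -0.36 to 0.19 for JUN, -0.22 to 0.09 for JUNB, -0.36 to 0.01 for EGR1, -0.09 to 0.01 for IER2, -1 to 0.51 for IER3 and -0.05 to 0.16 for DUSP1. The cause of the other changes was not tested. At 15.8 to 34.2 counts per library, FOSB was too shallow to give a direction.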
